A study of Mus musculus with 10 samples.

Results

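Complement transcripts were examined in colorectal tissue from just above the anus of C57BL/6J mice that had or lacked Pdgfc, a secreted growth factor that acts on mesenchymal cells through PDGF receptor alpha. The genes followed were C1qa, C1qb and C1qc, C1ra, Serping1, Cfb and C3ar1, chosen by name. Of 9 complement genes listed, these 7 had a probe set of their own, 11 probe sets in all, among 18193 genes on the array. C4b shared its probe set with C4a, so that probe set is given separately, and C3 was not analysed here. The groups were irradiated Pdgfc-/- (n = 3), irradiated Pdgfc+/+ (n = 3), unirradiated Pdgfc-/- (n = 2) and unirradiated Pdgfc+/+ (n = 2), with 1 array of total RNA per mouse sample. Irradiated animals had received 25 Gy of γ-rays locally at 2.14 Gy/min under chloral hydrate, and all tissue was taken 8 weeks later. The labels do not give the age of the mice, the way the Pdgfc allele was made or the cells in which it is missing.

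Complement is a cascade of plasma proteins that tags microbes and damaged cells. In the classical branch, C1q, built from the products of C1qa, C1qb and C1qc, binds antibody or a surface and activates the proteases C1r and C1s, which cleave C4 and C2. In the alternative branch, factor B (Cfb) supplies the protease. C1 inhibitor (Serping1) blocks C1r and C1s, and C3ar1 is the receptor for C3a, a peptide released from C3. The liver makes most circulating components, whereas tissue macrophages are a main source of C1q, and fibroblasts and epithelia can make others locally.

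The arrays were comparable in scale but differed in sex pattern. The median log2 signal of an array was 6.64 to 7.18, and arrays of a group correlated at 0.88 to 0.97 across genes, which are not independent replicates. Pdgfc lay at 6.26 to 7.15 in irradiated Pdgfc-/- against 8.56 to 8.75 in irradiated Pdgfc+/+, and at 5.62 and 6.42 in unirradiated Pdgfc-/- against 7.01 and 7.50 in unirradiated Pdgfc+/+. Xist and Y-linked transcripts had the female pattern on all 3 irradiated Pdgfc+/+ arrays and on replicate 1 of irradiated Pdgfc-/-, and the male pattern on the other 6. In Pdgfc+/+, sex pattern and irradiation therefore cannot be told apart. Between the irradiated groups, sex pattern also largely follows genotype. Colonocyte markers (8 genes, such as Car1 and Slc26a3) and goblet cell markers (6 genes, such as Muc2) were at least 11.11 in mean log2 signal on every array, which fits the labelled tissue. Stratified squamous markers (9 genes with a probe set, such as Krt14) had mean signals of 9.64 to 12.88 on irradiated arrays and 4.36 to 5.44 on unirradiated ones. Striated muscle markers (8 genes) averaged 11.05 to 12.57 in irradiated Pdgfc-/- and 6.25 to 12.10 in irradiated Pdgfc+/+, against 8.41 and 8.98 in unirradiated Pdgfc-/- and 4.18 and 4.34 in unirradiated Pdgfc+/+. The 3′ minus 5′ log2 signal of Gapdh, a sign of RNA quality, was -0.54 to -0.35 on irradiated arrays and -0.32 to 0.025 on unirradiated ones.

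The 3 C1q chains were higher after irradiation in both genotypes, by 8.88- to 16.6-fold. C1qa, the A chain (probe set 1417381_at), had log2 signals of 12.03, 11.57 and 12.16 in irradiated Pdgfc-/- and 12.33, 12.43 and 12.51 in irradiated Pdgfc+/+, against 7.67 and 8.86 in unirradiated Pdgfc-/- and 9.18 and 9.25 in unirradiated Pdgfc+/+. C1qb, the B chain (1417063_at), had 11.99, 11.30 and 12.01 in irradiated Pdgfc-/- and 12.09, 12.30 and 12.43 in irradiated Pdgfc+/+, against 7.25 and 8.18 in unirradiated Pdgfc-/- and 8.31 and 8.60 in unirradiated Pdgfc+/+. C1qc, the C chain (1449401_at), had 11.37, 10.98 and 11.56 in irradiated Pdgfc-/- and 11.62, 11.89 and 11.97 in irradiated Pdgfc+/+, against 7.06 and 8.18 in unirradiated Pdgfc-/- and 8.64 and 8.71 in unirradiated Pdgfc+/+. Every irradiated array lay above every unirradiated array for each chain, and replicate 1 of unirradiated Pdgfc-/- was the lowest of all. The 3 genes lie next to one another in the GRCm38.p6 gene table.

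The stretches upstream of the start sites of C1qb and C1qc are shown as the neighbouring members with the largest changes for which RefSeq (GRCm38.p6) gave a sequence, and that of C1ra as a member with a smaller one. Each runs 5′ to 3′ on the gene's strand over the 250 bases before the start. Capitals mark GAGGAA or its reverse TTCCTC, a core of sites for PU.1, a transcription factor of myeloid cells.
C1qb, chr4:136886201-136886450, minus strand: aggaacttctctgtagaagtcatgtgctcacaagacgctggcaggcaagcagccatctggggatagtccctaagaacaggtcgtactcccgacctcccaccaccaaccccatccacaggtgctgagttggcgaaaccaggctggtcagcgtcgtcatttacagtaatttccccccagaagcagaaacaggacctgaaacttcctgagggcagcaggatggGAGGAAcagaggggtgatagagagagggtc
C1qc, chr4:136892915-136893164, minus strand: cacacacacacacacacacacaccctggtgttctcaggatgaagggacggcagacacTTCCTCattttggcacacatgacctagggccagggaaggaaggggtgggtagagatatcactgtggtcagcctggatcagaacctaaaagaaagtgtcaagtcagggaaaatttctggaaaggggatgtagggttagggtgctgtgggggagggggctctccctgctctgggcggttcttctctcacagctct
C1ra, chr6:124512371-124512620, plus strand: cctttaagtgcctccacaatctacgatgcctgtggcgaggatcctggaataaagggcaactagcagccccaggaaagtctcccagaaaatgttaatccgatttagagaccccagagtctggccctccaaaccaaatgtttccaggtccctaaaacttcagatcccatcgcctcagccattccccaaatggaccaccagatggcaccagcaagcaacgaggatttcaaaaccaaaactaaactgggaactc
The match lay 30 bases before the start in C1qb and 193 bases before it in C1qc, in reverse. No match was present in these windows of C1ra and C3ar1. Of 32851 promoter windows of this length, 23.25% held the match on either strand. Neither TTCNNNGAA, the gamma-activated sequence (7.02% of windows), nor GAAA, any 2 bases and GAAA again, a core of the interferon-stimulated response element (2.98%), occurred on either strand in the windows of C1qb, C1qc, C1ra or C3ar1. These matches describe letters only. C1qa, Serping1, C4b and Cfb had no entry.

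**Figure D1:**
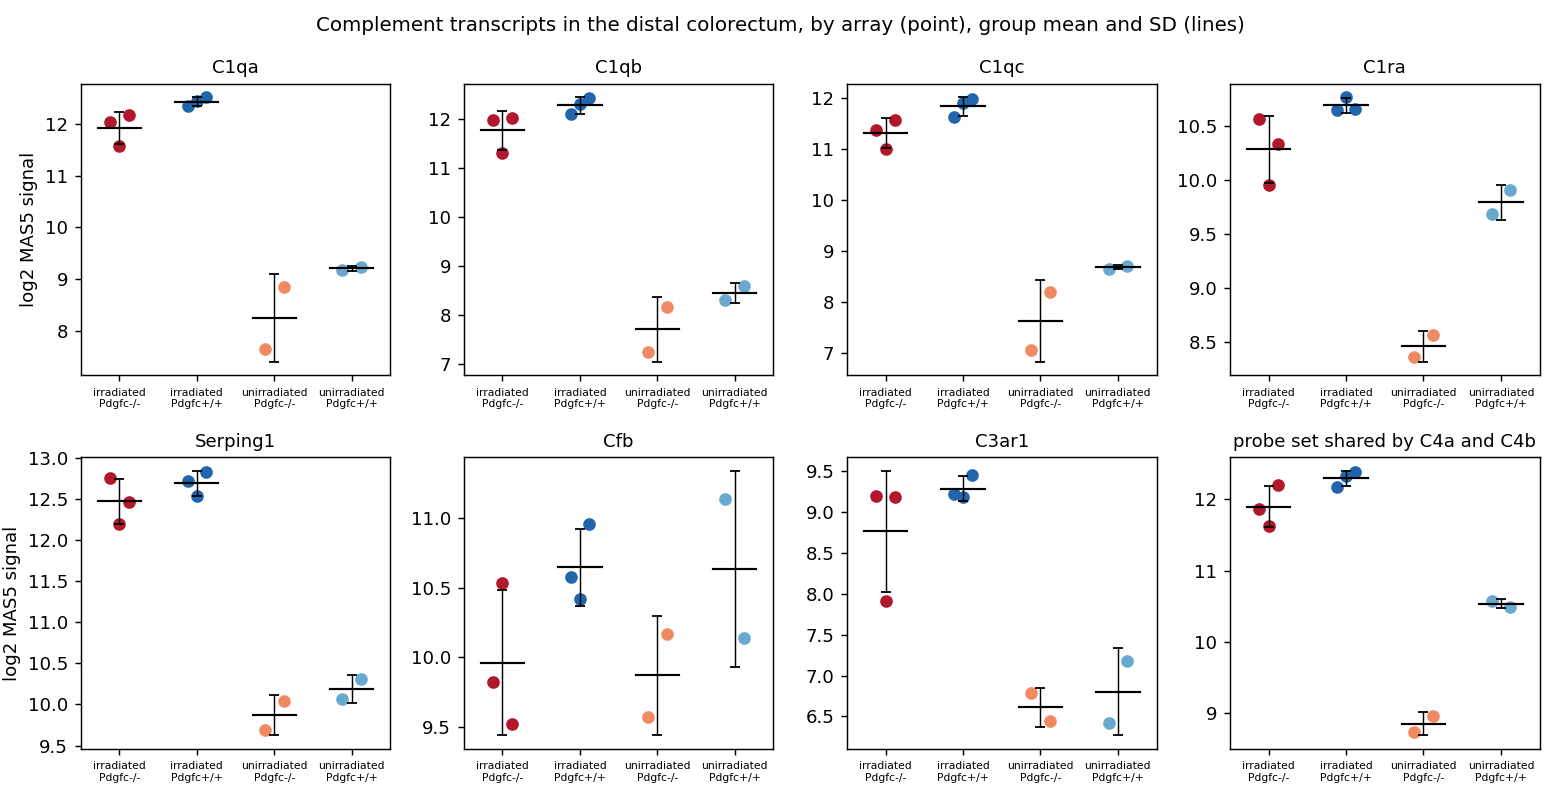
Log2 MAS5 signal (y axis) of the 7 complement genes and of the probe set shared by C4a and C4b, by group (x axis). Points are arrays, and black lines give the group mean and SD. The 6 irradiated arrays lie above the 4 unirradiated ones in every panel except that of Cfb, where irradiated and unirradiated arrays overlap.

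In Pdgfc-/-, the irradiation difference was 3.66 ± 0.30 for C1qa, 4.06 ± 0.29 for C1qb and 3.68 ± 0.30 for C1qc on the log2 scale (SE; limma adjusted p = 8.6e-05 to 1.3e-04). These are 12.6-, 16.6- and 12.8-fold higher signals. In Pdgfc+/+, it was 3.21 ± 0.30, 3.82 ± 0.29 and 3.15 ± 0.30 for C1qa, C1qb and C1qc (adjusted p = 1.9e-04 to 3.0e-04), or 9.24-, 14.2- and 8.88-fold. The remaining C1qb probe sets rose less, by 1.92 and 3.28 in Pdgfc-/- and by 1.53 and 2.49 in Pdgfc+/+ (adjusted p = 8.0e-04 to 0.0082 over all probe sets), and both can bind related sequences, as their x_at suffix marks. C1qa and C1qc had the most similar pattern of the 21 pairs of members. Their log2 values, each centred on its mean, differed by a root mean square of 0.062 over the 10 arrays, against 0.28 for C1qa and C1qb and 0.29 for C1qb and C1qc.

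Among genes outside the list, those with the pattern closest to C1qb were Tyrobp, Fcer1g, Srgn, Fcgr1 and Clec4a3, with root mean square differences of 0.22 to 0.28 over the 10 arrays. Tyrobp and Fcer1g encode signalling adaptors of myeloid receptors, Fcgr1 a high-affinity IgG receptor, Srgn a granule proteoglycan and Clec4a3 a lectin-like receptor. Macrophage markers moved with the C1q chains. Of 11 macrophage genes tested, 9 were higher and 1 lower in irradiated Pdgfc-/-, and 9 were higher and 0 lower in irradiated Pdgfc+/+, with median log2 differences of 2.43 and 2.17. The mean log2 signal of all 12 macrophage markers was 8.89 to 9.35 in irradiated Pdgfc-/- and 9.56 to 9.72 in irradiated Pdgfc+/+, against 6.94 and 7.10 in unirradiated Pdgfc-/- and 7.53 and 7.75 in unirradiated Pdgfc+/+. On the linear scale the summed signal of these markers was 14384 to 21153 on irradiated arrays and 4531 to 8884 on unirradiated ones. Of the defining markers, Csf1r, the receptor for the macrophage growth factor CSF1, averaged 11.97 ± 0.33 in irradiated Pdgfc-/- and 12.52 ± 0.07 in irradiated Pdgfc+/+ (SD, n = 3 each), against 9.54 ± 0.61 in unirradiated Pdgfc-/- and 10.35 ± 0.12 in unirradiated Pdgfc+/+ (SD, n = 2 each). Fcgr1, also one of these markers, and Cd68, a lysosomal protein of macrophages, rose by 3.85 and 3.27 in Pdgfc-/- and by 3.51 and 3.04 in Pdgfc+/+. The marker that was lower in Pdgfc-/- was Mertk, a receptor for engulfing dead cells, and Siglec1 lay at 2.35 to 6.26 and was not tested. In whole tissue, fewer cells of a type and less RNA per cell cannot be told apart.

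The C1q chains differed by more than the mean of the macrophage list, which includes Mertk and Siglec1. Single markers could match the chains: Fcgr1 rose by more than C1qa and C1qc in both genotypes. The mean of the 3 chains minus the mean of the 12 markers was 2.44, 2.40 and 2.75 log2 units in irradiated Pdgfc-/- and 2.46, 2.52 and 2.59 in irradiated Pdgfc+/+. It was 0.38 and 1.30 in unirradiated Pdgfc-/- and 1.18 and 1.10 in unirradiated Pdgfc+/+. The irradiated arrays thus lay above the unirradiated ones on this difference, without overlap. Only 5 of the 12 markers in unirradiated Pdgfc-/- and 8 in unirradiated Pdgfc+/+ lay above the array median. This comparison was made after the values were seen and was not tested.

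**Figure D2:**
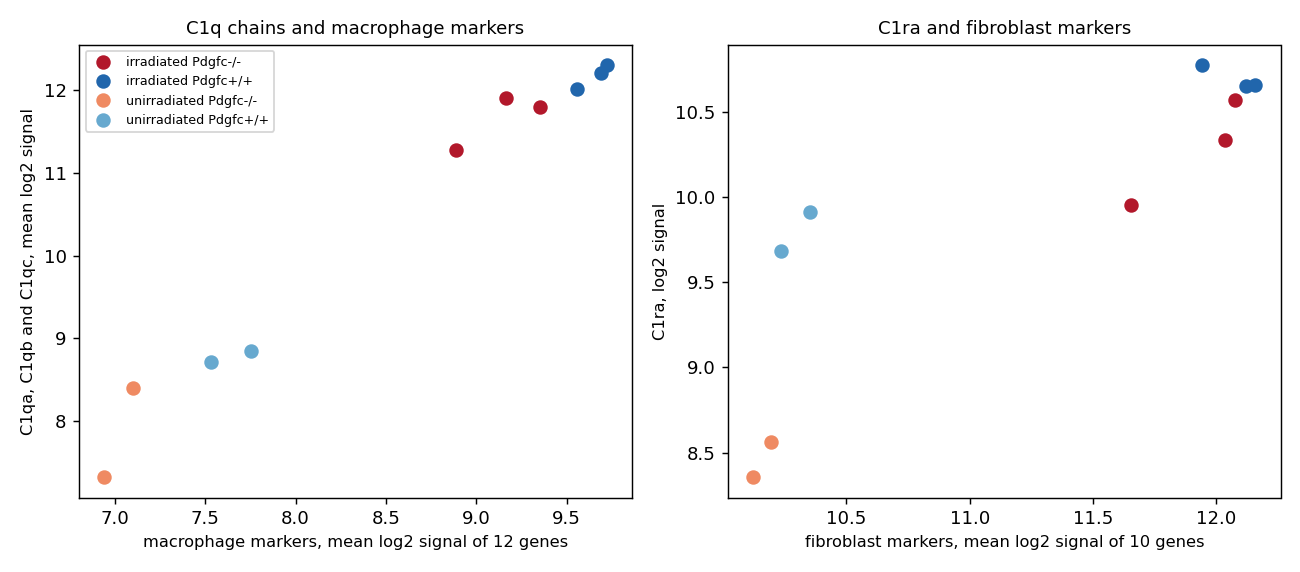
Left, mean log2 signal of C1qa, C1qb and C1qc (y axis) against that of 12 macrophage markers (x axis). Right, log2 signal of C1ra (y axis) against the mean of 10 fibroblast markers (x axis). Each point is an array, coloured by group. C1q lay highest on the arrays with the highest macrophage mean, while C1ra was 8.36 and 8.56 in unirradiated Pdgfc-/- against 9.68 and 9.91 in unirradiated Pdgfc+/+ at fibroblast means of 10.12 to 10.35.

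C1ra, one of the mouse genes for the protease C1r, also rose with irradiation, and by less than the brightest C1q probe sets. Its log2 signal (1417009_at) was 10.57, 9.95 and 10.33 in irradiated Pdgfc-/- and 10.65, 10.77 and 10.65 in irradiated Pdgfc+/+, against 8.36 and 8.56 in unirradiated Pdgfc-/- and 9.68 and 9.91 in unirradiated Pdgfc+/+. The irradiated arrays lay above the unirradiated ones of the same genotype, with the smaller gap in Pdgfc+/+. The difference was 1.82 ± 0.19 in Pdgfc-/- (SE; limma adjusted p = 3.1e-04; 3.54-fold) and 0.90 ± 0.19 in Pdgfc+/+ (adjusted p = 0.0088; 1.86-fold). The 95% intervals, 1.41 to 2.24 and 0.48 to 1.31, lie below those of the brightest probe set of each C1q chain in the same genotype. They overlap those of the C1qb probe set 1434366_x_at, 1.24 to 2.61 in Pdgfc-/- and 0.85 to 2.21 in Pdgfc+/+. Without replicate 1 of unirradiated Pdgfc+/+, the Pdgfc+/+ difference was 0.78 and no longer past the threshold (adjusted p = 0.071). A second probe set, shared with the near-identical C1rb, had 8.20, 7.94 and 8.38 in irradiated Pdgfc-/- and 8.11, 7.87 and 8.51 in irradiated Pdgfc+/+, against 6.98 and 6.31 in unirradiated Pdgfc-/- and 7.45 and 7.74 in unirradiated Pdgfc+/+. It was 1.53 ± 0.28 higher in irradiated than unirradiated Pdgfc-/- (SE; adjusted p = 0.0055 over 25883 probe sets), and the Pdgfc+/+ difference of 0.57 ± 0.28 did not pass (adjusted p = 0.19).

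Serping1, the C1 inhibitor, rose about 6-fold in each genotype. Its log2 signal (1416625_at) was 12.75, 12.20 and 12.46 in irradiated Pdgfc-/- and 12.72, 12.53 and 12.83 in irradiated Pdgfc+/+, against 9.70 and 10.04 in unirradiated Pdgfc-/- and 10.06 and 10.31 in unirradiated Pdgfc+/+. The irradiated and unirradiated arrays did not overlap in either genotype. The difference was 2.60 ± 0.19 in Pdgfc-/- (6.08-fold) and 2.51 ± 0.19 in Pdgfc+/+ (5.68-fold; SE; limma adjusted p = 8.6e-05 and 1.8e-04).

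The probe set shared by C4a and C4b, whose accession is that of the C4b transcript, can carry the signal of either gene. It had 11.87, 11.63 and 12.20 in irradiated Pdgfc-/- and 12.18, 12.33 and 12.39 in irradiated Pdgfc+/+, against 8.73 and 8.96 in unirradiated Pdgfc-/- and 10.58 and 10.49 in unirradiated Pdgfc+/+. All 4 unirradiated arrays lay below the irradiated ones, the Pdgfc-/- pair lowest. In limma over all probe sets, the irradiation difference was 3.05 ± 0.18 in Pdgfc-/- and 1.76 ± 0.18 in Pdgfc+/+ (SE; adjusted p = 2.4e-05 and 3.4e-04). All were also past the threshold without any single one of the 10 arrays. The probe set cannot tell the near-identical C4a and C4b apart.

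Cfb, factor B of the alternative branch, was the only member with no called change in any comparison. Its log2 signal (1417314_at) was 9.82, 10.54 and 9.52 in irradiated Pdgfc-/- and 10.58, 10.42 and 10.96 in irradiated Pdgfc+/+, against 9.57 and 10.17 in unirradiated Pdgfc-/- and 11.14 and 10.14 in unirradiated Pdgfc+/+. Irradiated and unirradiated arrays overlapped within each genotype, and Cfb was above the array median on all 10 arrays. The irradiation difference was 0.09 with a 95% interval of -0.72 to 0.90 in Pdgfc-/- (limma adjusted p = 0.88) and 0.01 with an interval of -0.80 to 0.82 in Pdgfc+/+ (adjusted p = 0.98). The direction was not settled: without replicate 3 of irradiated or replicate 2 of unirradiated Pdgfc+/+ the Pdgfc+/+ difference was -0.14 or -0.49, and without replicate 2 of irradiated or replicate 1 of unirradiated Pdgfc-/- the Pdgfc-/- difference was -0.20 or -0.21. The genes closest to Cfb in pattern were Oas1a, Epsti1, Samd9l, Uba7 and Mdn1, at root mean square differences of 0.24 to 0.29 over the 10 arrays. Oas1a, an antiviral oligoadenylate synthetase, Epsti1 and Samd9l are known as interferon-induced genes, and Uba7 encodes the activating enzyme for the ubiquitin-like protein ISG15. None of these 5 was past the threshold for irradiation in either genotype. They were picked for matching Cfb on these same arrays, so this is not a separate result.

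C3ar1, the C3a receptor, rose in both genotypes. On its brightest probe set (1442082_at) the log2 signal was 9.20, 7.91 and 9.19 in irradiated Pdgfc-/- and 9.22, 9.18 and 9.46 in irradiated Pdgfc+/+, against 6.78 and 6.44 in unirradiated Pdgfc-/- and 6.42 and 7.18 in unirradiated Pdgfc+/+. Replicate 2 of irradiated Pdgfc-/- lay lowest of the irradiated arrays. The difference was 2.15 ± 0.39 in Pdgfc-/- and 2.49 ± 0.39 in Pdgfc+/+ (SE; limma adjusted p = 0.0049 and 0.0026). The remaining probe sets gave 2.76 and 1.82 in Pdgfc-/- and 2.77 and 2.87 in Pdgfc+/+, all past the threshold. C3ar1 lay above the array median on 1 of the 4 unirradiated arrays.

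In all, 6 of 7 members were higher and 0 lower after irradiation in Pdgfc-/-, where 14.0% of all 12568 genes tested were called higher and 9.50% lower. In Pdgfc+/+ they were likewise 6 and 0, where 15.8% of genes were called higher and 8.34% lower. Every irradiated array lay above every unirradiated array of its genotype for these 6 members, as for 28.4% of genes in Pdgfc-/- and 30.8% in Pdgfc+/+. The median log2 difference of the members was 2.60 in Pdgfc-/- and 2.51 in Pdgfc+/+, against 0.01 and 0.07 over all genes tested. Without replicate 1 of irradiated Pdgfc-/-, which leaves only arrays of the male pattern in that genotype, 6 members were still called in Pdgfc-/-, with C1qb at 3.95, Serping1 at 2.46 and C1ra at 1.68. In Pdgfc+/+ the sex pattern is the same split as irradiation. A fit with the sex pattern as a covariate takes its sex term from 1 array, replicate 1 of irradiated Pdgfc-/-, set against the other 2 of that group, so it does not separate them. It called 6 members in Pdgfc-/- and 1 in Pdgfc+/+. The Pdgfc+/+ differences in that fit were 2.09 for Serping1 (limma adjusted p = 0.040), 3.05, 3.49 and 3.06 for C1qa, C1qb and C1qc (adjusted p = 0.075, 0.052 and 0.075), 1.84 for C3ar1 (adjusted p = 0.28) and 0.47 for C1ra (adjusted p = 0.55).

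**Figure D3:**
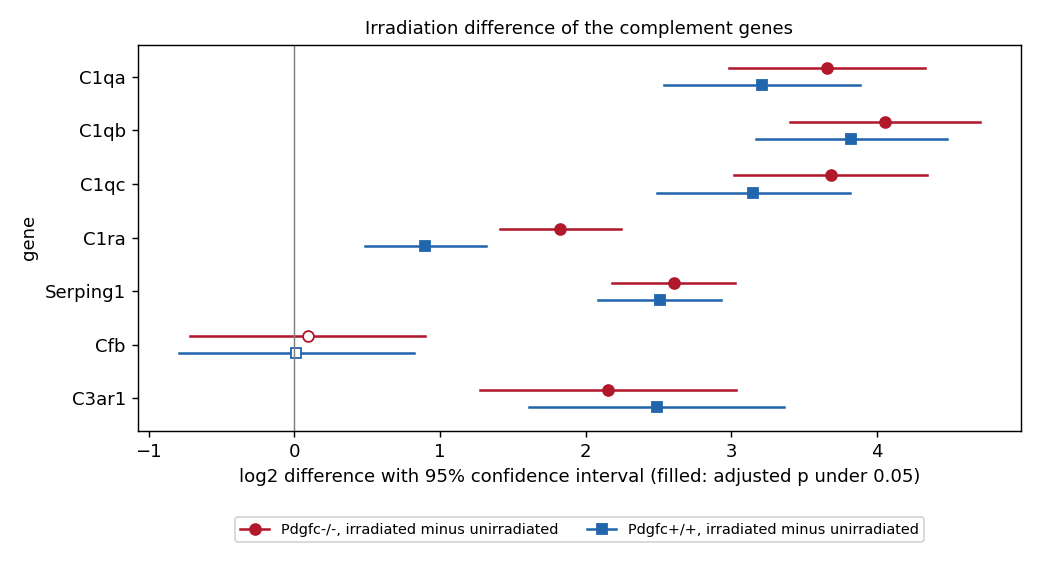
Irradiation difference (x axis, log2, irradiated minus unirradiated, with 95% confidence interval) of each member (y axis) in Pdgfc-/- and Pdgfc+/+. Filled symbols mark an adjusted p under 0.05. The C1q chains lie at 3.15 to 4.06 and Cfb at 0.01 and 0.09.

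Markers of other cell types differed on the same arrays. Fibroblast markers were higher in irradiated tissue for 9 of 10 genes in Pdgfc-/- and for 10 of 10 in Pdgfc+/+, with means of 11.65 to 12.16 on irradiated arrays and 10.12 to 10.35 on unirradiated ones. Colonocyte markers were lower for 6 of 8 genes in Pdgfc-/- and for 7 of 8 in Pdgfc+/+. Of 9 hepatocyte markers, 3 to 4 lay above the array median on every array, with list means of 5.18 to 6.15 on irradiated and 5.21 to 6.17 on unirradiated arrays. Ttr, Apob and Tat had group means of 11.27 to 12.62, 8.91 to 9.75 and 8.35 to 9.47, whereas Ahsg, Fga and Fgb were at most 4.21 on every array. Ttr, the thyroid hormone carrier transthyretin, was lower by 1.35 in irradiated than unirradiated Pdgfc-/- (difference -1.35, limma adjusted p = 3.4e-04) and higher by 1.26 in unirradiated Pdgfc-/- than in unirradiated Pdgfc+/+ (adjusted p = 0.0064). Adipocyte markers were higher for 3 of 5 genes and neutrophil markers for 2 of 4 in Pdgfc-/-, against 3 of 5 and 3 of 4 in Pdgfc+/+. The part of tissue make-up in the complement differences was not tested.

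Between the genotypes in unirradiated tissue, 1 of the 7 members passed the threshold. C1ra was 1.34 ± 0.20 log2 units lower in unirradiated Pdgfc-/- (difference -1.34, 95% interval -1.79 to -0.88; limma adjusted p = 0.015), a 2.52-fold lower signal at 8.46 ± 0.14 against 9.80 ± 0.16 (SD, n = 2 each). Of the 7 members 1 was called lower and 0 higher, where 0.804% of all genes were called lower and 0.422% higher. The call rested on single arrays: without replicate 1 or 2 of unirradiated Pdgfc-/-, or replicate 2 of unirradiated Pdgfc+/+, the difference was -1.23, -1.44 or -1.22 and the adjusted p 0.14, 0.068 or 0.087. All 7 members had a negative difference on their brightest probe set, with a median of -0.77 against 0.07 over all genes tested. For C3ar1 the direction depended on the probe set, with 0.41 on 1419483_at. For C1qa, C1qb, C1qc, C1ra and Serping1 both Pdgfc-/- arrays lay below both Pdgfc+/+ arrays, which held in this direction for 18.9% of all genes.

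The differences of the C1q chains without irradiation were -0.95 for C1qa (95% interval -1.69 to -0.21), -0.74 for C1qb (-1.46 to -0.03) and -1.05 for C1qc (-1.78 to -0.33). None passed the threshold over all genes (limma adjusted p = 0.15 to 0.29). Replicate 1 of unirradiated Pdgfc-/- was the lowest unirradiated array for 6 of 7 members and replicate 2 of unirradiated Pdgfc+/+ the highest for 6 of 7. Macrophage markers ran the same way, with a median difference of -0.81 over 11 genes and 0 called. Serping1 had -0.32 (-0.78 to 0.14), Cfb -0.77 (-1.65 to 0.12) and C3ar1 -0.19 (-1.15 to 0.78).

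The probe set shared by C4a and C4b was 1.69 ± 0.19 log2 units lower in unirradiated Pdgfc-/- than in unirradiated Pdgfc+/+ (difference -1.69; SE; limma adjusted p = 0.0036 over 25883 probe sets). The difference stayed past the threshold without any single one of the 10 arrays, at -1.80 to -1.57 (adjusted p = 0.0020 to 0.040). The C1ra and C1rb probe set had -0.95 ± 0.31 (adjusted p = 0.17). The mean of the fibroblast markers was 10.12 and 10.19 in unirradiated Pdgfc-/- against 10.23 and 10.35 in unirradiated Pdgfc+/+, with 0 of 10 genes called by limma and a median difference of -0.12. Striated muscle markers were higher on both unirradiated Pdgfc-/- arrays, with a median difference of 4.19 over 8 genes and 0 called. C1ra minus the fibroblast mean was -1.76 and -1.63 in unirradiated Pdgfc-/- against -0.55 and -0.44 in unirradiated Pdgfc+/+. It was -1.70 to -1.51 in irradiated Pdgfc-/- and -1.50 to -1.17 in irradiated Pdgfc+/+, a description with no test. For C1s1 the difference was -1.08 and -0.74 in unirradiated Pdgfc-/- against -0.12 and -0.39 in unirradiated Pdgfc+/+. For Serping1 it was -0.43 and -0.16 against -0.17 and -0.04, groups that overlapped. These were not tested either.

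After irradiation, no member was called different between the genotypes. Sex pattern differed between these groups too: female on every irradiated Pdgfc+/+ array, male on replicates 2 and 3 of irradiated Pdgfc-/-. Genotype and sex pattern are therefore not separated in this comparison. The differences, Pdgfc-/- minus Pdgfc+/+, were negative for all 7 and ran from -0.69 for Cfb to -0.22 for Serping1, with a median of -0.51 against 0.00 over all genes tested. Limma called 0 of 7 members and 0% of all genes tested at an adjusted p of 0.05. At an unadjusted p under 0.05, 1 of 7 members passed, C1ra at -0.41 (95% interval -0.78 to -0.04; unadjusted p = 0.035), as did 500 of 12568 genes. The 95% intervals of the other 6 included 0 and reached from -1.41 to 0.26. For C1qa, C1qb, C1qc and C1ra all Pdgfc-/- arrays lay below all Pdgfc+/+ arrays, which 4.04% of all genes did in this direction. Replicate 2 of irradiated Pdgfc-/- was the lowest irradiated array for 6 of 7 members and replicate 3 of irradiated Pdgfc+/+ the highest for 6 of 7. On this replicate 2 the macrophage and fibroblast means were the lowest of the 6 irradiated arrays, at 8.89 and 11.65, and the colonocyte mean was the highest, at 12.43; the part of these in the differences was not tested.

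**Figure D4:**
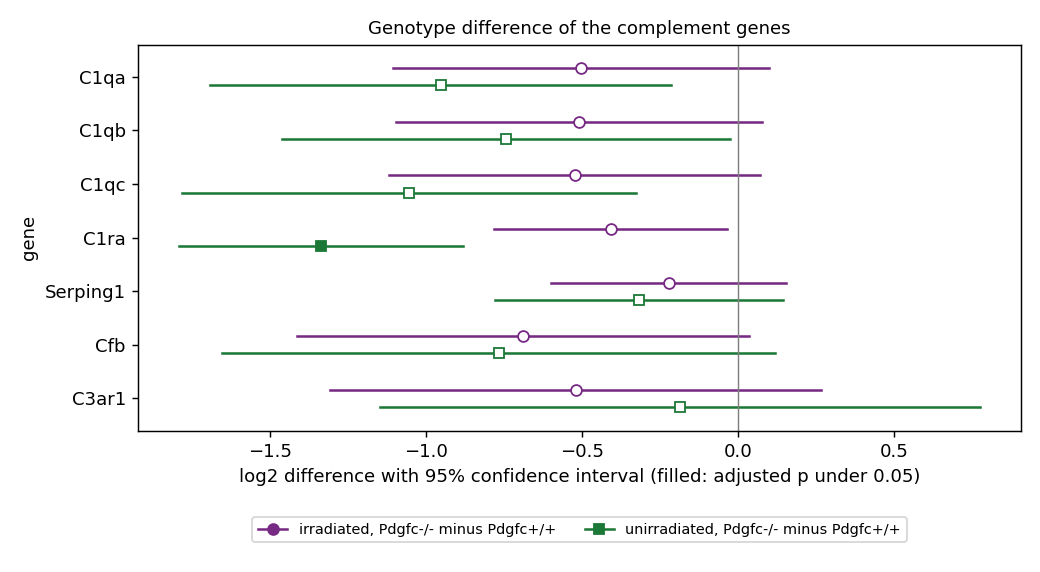
Genotype difference (x axis, log2, Pdgfc-/- minus Pdgfc+/+, with 95% confidence interval) of each member (y axis) after irradiation and without it. The filled symbol, C1ra without irradiation at -1.34, is the one with an adjusted p under 0.05. All 14 differences, each on the brightest probe set, are negative.

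The irradiation difference did not pass the test for a dependence on genotype in any member. The interaction, the difference in Pdgfc-/- minus that in Pdgfc+/+, was 0.93 ± 0.26 for C1ra (SE; 95% interval 0.34 to 1.52; unadjusted p = 0.0057, limma adjusted p = 0.29). Of all genes tested 0.207% were called, and of the 7 members 0, with 1 at an unadjusted p under 0.05. For the shared C4a and C4b probe set it was 1.29 ± 0.25 (unadjusted p = 3.9e-04, adjusted p = 0.10 over 25883 probe sets). The C1q chains lay at 0.23 to 0.53, Serping1 at 0.10, Cfb at 0.08 and C3ar1 at -0.33, each with an interval that included 0. Since the irradiated groups differed in sex pattern, the interaction does not separate sex pattern from genotype.

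Other complement genes were followed from a list of 44, of which 35 had a probe set and 22 were tested. Of these 22, 9 were higher and 0 lower after irradiation in Pdgfc-/-, where 14.0% of all genes tested were called higher and 9.50% lower. In Pdgfc+/+, 10 were higher and 0 lower, where 15.8% of genes were called higher and 8.34% lower. The medians were 1.02 in Pdgfc-/- and 1.09 in Pdgfc+/+, against 0.01 and 0.07 over all genes tested. Among genes that start the cascade, C1s1, for the protease C1s that works with C1r, had 12.10, 11.52 and 11.89 in irradiated Pdgfc-/- and 11.99, 12.21 and 12.37 in irradiated Pdgfc+/+, against 9.04 and 9.46 in unirradiated Pdgfc-/- and 10.12 and 9.96 in unirradiated Pdgfc+/+. Its irradiation difference was 2.59 ± 0.20 in Pdgfc-/- and 2.15 ± 0.20 in Pdgfc+/+ (SE; limma adjusted p = 1.1e-04 and 3.0e-04). Masp1, a protease of the lectin branch, rose on its brightest probe set by 1.28 in Pdgfc-/- and 1.24 in Pdgfc+/+ (adjusted p = 0.032 and 0.036). Another Masp1 probe set had 1.12 in Pdgfc-/-, which did not pass, and 2.35 in Pdgfc+/+ (limma adjusted p = 0.14 and 0.010 over all probe sets). The unirradiated genotype difference of Masp1 was -0.33 on the brightest probe set and 0.97 on the other, neither past the threshold. The collectin Colec11 rose by 2.98 in Pdgfc-/- and 2.28 in Pdgfc+/+ (adjusted p = 0.013 and 0.037), with every unirradiated array below its median. Colec12, a scavenger receptor of the collectin family, rose in Pdgfc+/+ by 1.31 (adjusted p = 0.037). C1s1 stayed past the threshold without any single array in both genotypes. Of the 10 fits that each left out 1 array, 6 kept the call of Masp1 and 7 that of Colec11 in Pdgfc-/-, and 2 kept that of Masp1, 4 that of Colec11 and 5 that of Colec12 in Pdgfc+/+. In unirradiated tissue C1s1 had a genotype difference of -0.79 (95% interval -1.29 to -0.30; adjusted p = 0.12), and both Pdgfc-/- arrays lay below both Pdgfc+/+ arrays.

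C2, the second substrate of C1s, rose by 1.00 ± 0.24 in Pdgfc-/- (SE; limma adjusted p = 0.016) and had 0.40 ± 0.24 in Pdgfc+/+ (adjusted p = 0.25). Without replicate 3 of irradiated or replicate 2 of unirradiated Pdgfc-/-, the Pdgfc-/- difference was 0.84 or 0.65 and did not pass (adjusted p = 0.052 and 0.14). Those values are of its brightest probe set, and its 3 probe sets disagreed in size. In Pdgfc-/-, 1416051_at rose by 2.47 and 1457664_x_at by 1.65 (limma adjusted p = 9.3e-04 and 0.0033 over all probe sets). In Pdgfc+/+ they had 0.78 and 0.68, which did not pass (adjusted p = 0.11 for both). On 1416051_at the log2 signals were 9.18, 9.0 and 9.49 in irradiated Pdgfc-/- and 9.63, 9.66 and 9.49 in irradiated Pdgfc+/+, against 7.37 and 6.12 in unirradiated Pdgfc-/- and 9.01 and 8.63 in unirradiated Pdgfc+/+. This probe set put the unirradiated genotype difference at -2.07 ± 0.35 (limma adjusted p = 0.025 over all probe sets). The brightest one put it at -0.77 ± 0.26 (adjusted p = 0.19) and 1457664_x_at at -1.34 ± 0.30 (adjusted p = 0.072). Properdin (Cfp), which stabilises the alternative convertase, also differed by probe set. Its brightest one had -0.24 in Pdgfc-/- and 0.61 in Pdgfc+/+, neither past the threshold, whereas 1452279_at rose by 2.94 and 2.65 (limma adjusted p = 0.0068 and 0.011 over all probe sets). On that probe set the unirradiated signals were 4.12 to 6.55, below the array medians.

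Of 8 regulators tested, 0 were called in Pdgfc-/- and 1 was called higher in Pdgfc+/+, where 14.0% and 15.8% of all genes tested were called higher. Clusterin (Clu), a secreted chaperone that restrains the terminal complex, rose by 3.74 ± 0.54 in Pdgfc+/+ (SE; limma adjusted p = 0.0017) and had 1.59 ± 0.54 in Pdgfc-/- (adjusted p = 0.059). It had 11.30, 10.52 and 11.68 in irradiated Pdgfc-/- and 12.90, 11.51 and 13.61 in irradiated Pdgfc+/+, against 9.23 and 9.93 in unirradiated Pdgfc-/- and 9.08 and 8.80 in unirradiated Pdgfc+/+. The interaction of -2.15 ± 0.76 did not pass (adjusted p = 0.36). Vitronectin (Vtn) had 1.12 in Pdgfc-/- (adjusted p = 0.072). Other probe sets of regulators differed from the brightest ones. Cd55, a membrane protein that breaks up convertases, rose on 1443906_at by 1.31 in Pdgfc-/- and 1.25 in Pdgfc+/+ (adjusted p = 0.019 and 0.023 over all probe sets), and had 0.49 and 0.76 on its brightest probe set (adjusted p = 0.25 and 0.089). Cr1l, the rodent regulator Crry, fell on 1430131_at by 1.09 in Pdgfc-/- (adjusted p = 0.017 over all probe sets), and had 0.10 on its brightest one (adjusted p = 0.64). In the genotype comparisons Cfi, the protease factor I, had -0.98 after irradiation and -1.07 without it, neither past the threshold.

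Of 9 receptors listed, 8 had a probe set and 6 were tested. Of these 6, 5 were higher and 0 lower after irradiation in each genotype. Of all genes tested, 14.0% in Pdgfc-/- and 15.8% in Pdgfc+/+ were called higher. The sixth, C1qbp, a mitochondrial protein that can bind C1q, had 0.04 in Pdgfc-/- (limma adjusted p = 0.91) and -0.52 in Pdgfc+/+ (adjusted p = 0.089). Itgb2 and Itgam, the subunits of complement receptor CR3, rose by 3.65 ± 0.34 and 2.13 ± 0.41 in Pdgfc-/- and by 3.68 ± 0.34 and 3.27 ± 0.41 in Pdgfc+/+ (SE; limma adjusted p = 2.1e-04 to 0.0062). Itgam lay at 4.55 to 5.44 on the unirradiated arrays, below every array median, so it was tested through the irradiated arrays. Itgax, the alpha subunit of CR4, rose by 1.52 in Pdgfc-/- and 2.26 in Pdgfc+/+. Cd93, a receptor of endothelial and myeloid cells, rose by 1.48 and 2.12. Without replicate 1 or 2 of unirradiated Pdgfc-/-, Itgax in Pdgfc-/- was 1.63 or 1.4 and did not pass (adjusted p = 0.066 and 0.096). Vsig4, a macrophage receptor for C3b, rose by 2.40 in Pdgfc-/- (adjusted p = 0.0082) and by 1.51 in Pdgfc+/+ (adjusted p = 0.0495). The Pdgfc-/- call was lost without replicate 1 of the unirradiated arrays (1.97, adjusted p = 0.071), and the Pdgfc+/+ call was kept in 2 of the 10 fits that each left out 1 array. It had 7.95, 7.77 and 7.82 in irradiated Pdgfc-/- against 6.46, 6.24 and 6.94 in irradiated Pdgfc+/+. The genotype difference was 1.30 ± 0.44 (limma unadjusted p = 0.015, adjusted p = 0.9999). That direction is opposite to the 7 members. Vsig4 lay above the array median only on the irradiated Pdgfc-/- arrays. It was therefore tested through that group alone, and the genotype difference is not independent of that choice. No terminal component was tested. C6, part of the membrane attack complex, had 6.89, 5.97 and 6.93 in irradiated Pdgfc-/- and 7.11, 6.57 and 6.78 in irradiated Pdgfc+/+, against 4.45 and 2.44 in unirradiated Pdgfc-/- and 4.08 and 4.02 in unirradiated Pdgfc+/+, above the array median on 1 array.

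**Figure D5:**
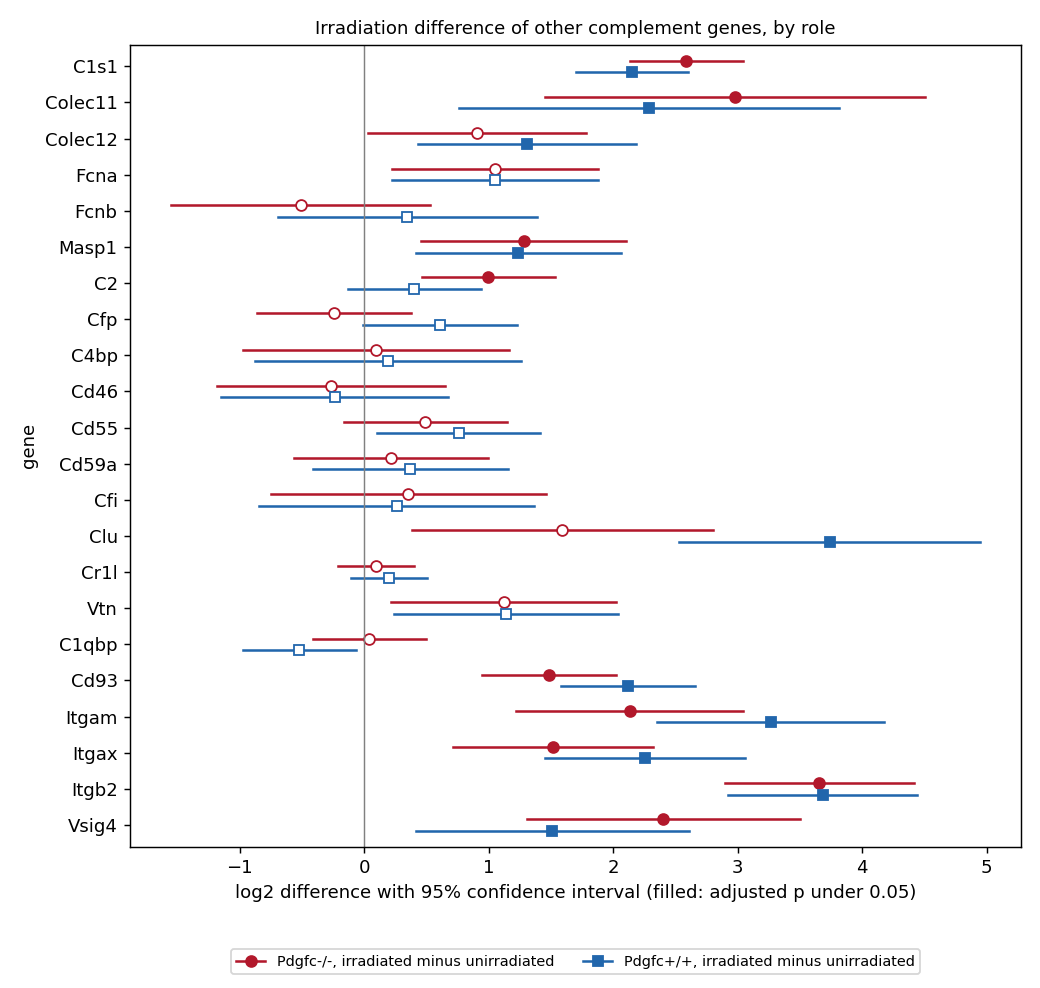
Irradiation difference (x axis, log2, irradiated minus unirradiated, with 95% confidence interval) of the 22 other complement genes tested (y axis), ordered from initiators through C2 and properdin and the regulators to receptors. Filled symbols mark an adjusted p under 0.05. Each gene is shown on its brightest probe set. C1s1, Masp1, Colec11 and 5 of 6 receptors are filled in both genotypes, while 7 of 8 regulators are open in both.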

How the data were processed

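Total RNA of colorectum was measured on 10 Affymetrix arrays, 1 per sample, grouped by the labels, which call the replicates biological. MAS5 signals had been computed by the authors, per the submitters' processing notes; the sources used here give no MAS5 version. The values as deposited fitted a log2 scale: raised from it to linear signal, each array had a mean of 500 once 2% of probe sets was trimmed at either tail. Detection calls were not used, dim MAS5 signals are imprecise, and the number of arrays limits the precision.

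The 45101 probe sets comprised 64 controls, 34945 annotated to 1 gene, 932 to several and 9160 to none listed here. Symbols of 34741 were updated by gene ID from a GRCm38.p6 table. Each gene was represented by its brightest probe set and tested where that exceeded the median of 2 or more arrays (12568 genes). Limma 3.58.1 in R 4.3.3 was fitted to the 4 group means over all 10 arrays (6 residual degrees of freedom, variance prior following the mean), with Benjamini-Hochberg adjustment over all genes at 0.05, and was tested on simulated data. All single probe sets, and after seeing the data those shared by several genes, were fitted likewise.

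Members, lists, rules and alternatives were chosen with earlier results of these data known. Named were all members; other complement genes past the threshold (up to 4 a list and comparison), or some with the smallest p where none passed; and the 5 genes closest in pattern to C1qb and to Cfb. The single probe sets of C2, Cfp, Cd55, Cr1l and Masp1 were picked after their values were seen. So were C1qbp, the hepatocyte genes, Vtn, C6, the macrophage genes, and the differences from marker means. Alternatives changed the scaling, pseudocount, filter, probe set rule, covariates and arrays used.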

Additional observations from a re-analysis of the deposited data

How the results depend on the processing

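The 6 member calls for irradiation in Pdgfc-/- held in all 21 alternatives run: quantile scaling, pseudocounts of 16 and 64, other filters, no variance trend, the mean of probe sets, every probe set, the replicate number as a block, only the groups compared (not run for the interaction), the sex pattern as a covariate, and each of the 10 arrays left out. Over the 5 comparisons, 698 of 728 member values kept direction and side of the threshold, 10 lost the threshold and 20 changed sign, all 20 of values not called in either fit. The cause of these changes was not tested. With the sex covariate, whose term rests on 1 array, 1 member in place of 6, 0 other complement genes in place of 10 and 16 of all genes in place of 3028 were called for irradiation in Pdgfc+/+. In that fit the genotype difference of Serping1 after irradiation was 0.059, and the interactions of Cfb and C3ar1 were -0.061 and 0.10. Leaving out single arrays gave 5 to 6 members and 6 to 11 other complement genes for irradiation in Pdgfc+/+, 6 to 12 other complement genes in Pdgfc-/-, and 0 to 1 members for genotype without irradiation. The 10 other genes in Pdgfc+/+ became 6 without replicate 3 of irradiated Pdgfc-/- or replicate 1 or 3 of irradiated Pdgfc+/+. Quantile scaling also gave 6, and it moved the calls for genotype without irradiation to 30 higher and 99 lower, in place of 53 and 101. With the mean of probe sets, 1 other complement gene, C2, was called for genotype without irradiation (-1.39, adjusted p = 0.045). Same-numbered arrays deviated together at correlations of only -0.20 to 0.16 over 13 pairs, so the numbers were not taken as pairs. With the replicate block, 0 members in place of 1 were called for genotype without irradiation (C1ra -1.34, adjusted p = 0.063), and 7 other complement genes in Pdgfc+/+. Over all genes the calls were 1188 to 3597 for irradiation in Pdgfc-/-, up to 3475 in Pdgfc+/+, 0 to 3 and 41 to 257 for genotype with and without irradiation, and 3 to 35 for the interaction. Without single arrays, Cfb ran from -0.49 to 0.51 for irradiation in Pdgfc+/+ and from -0.21 to 0.39 in Pdgfc-/-, and C3ar1 from -0.56 to 0.19 for genotype without irradiation. Interactions ran from -0.15 to 1.05 for C1qa, -0.23 to 0.70 for C1qb, -0.031 to 1.09 for C1qc, -0.075 to 0.27 for Serping1, -0.42 to 0.58 for Cfb and -0.71 to 0.093 for C3ar1. Where 1 of 2 arrays was left out, the remaining one was taken to have the spread of the rest.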
